A study of Mus musculus with 12 samples.

Results

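The genes described here encode AP-1, a transcription factor built as a dimer of Fos and Jun family proteins. They were taken from the deposited count table by symbol (Fos, Fosb, Fosl1, Fosl2, Jun, Junb and Jund), and 7 of 7 were present among 12145 genes. All 7 passed the filter on low counts, which kept 12119 genes. RNA was measured in C57BL6 mouse cortical cultures prepared at embryonic day 16.5 to 17.5 and given an empty lentivirus or a lentivirus carrying miR-29c, each at a total multiplicity of infection of 2. At day in vitro 14 the cultures were exposed to oxygen-glucose deprivation (OGD), a cell culture model of ischemia, for 3 h and then returned to normal medium for 4 h, while sham cultures were rinsed and kept in normal oxygen. The groups were sham-empty (n = 2), sham-miR-29 (n = 3), OGD-empty (n = 3) and OGD-miR-29 (n = 3), the replicates of a group being cultures of separate dissection days, so that libraries of the same number share a day. Every group carried a lentivirus, the sham cultures met the same buffer, and no uninfected culture was analysed here.

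Fos family proteins bind DNA only as partners of Jun family proteins, whereas Jun proteins can also pair with themselves. Fos, Fosb and Junb are immediate early genes of neurons, which are switched on briefly by synaptic activity, growth factors or injury through factors such as SRF and CREB already present in the cell. Jun is activated by the JNK kinases and is known for its role in neuronal stress and cell death, and Jund is the member that is expressed most steadily in resting cells.

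Libraries were shallow, with summed counts of 231500 to 1362484 outside the mitochondrial rows. The column labelled sham-empty replicate 3, which summed to 22859, was not read counts and was left out. The cultures carried all 10 of the neuronal markers listed, whose summed level was 628 to 1326 CPM (counts scaled to library size) in single libraries. Of the astrocyte markers, Gfap and Gjb6 were absent from the table and the other 5 summed to 57.7 to 106 CPM. Microglial markers (3 of 7 in the table, with C1qa, C1qb, P2ry12 and Tmem119 absent), oligodendrocyte markers (4 of 8, with Olig2 absent) and fibroblast and vessel markers (3 of 9, with Col1a1 and Pecam1 absent) stayed at or below 40.8 CPM in sum. These are bulk samples, so fewer cells of a type and less RNA per cell cannot be told apart. One property moved with the groups over all genes. The slope of log2 CPM per 10-fold gene span was 0.206 to 0.5002 in OGD-empty and -0.225 to 0.0605 in the other 3 groups, so long genes stood higher in OGD-empty.

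The virus carried miR-29c, and the sequences of the 3p arms of the miR-29 family are shown because a match to their seed is the direct way in which the virus could meet a member's transcript. Capitals mark the seed, bases 2 to 8, which the members of the family share. Sequences are from RefSeq (GRCm38.p6), written 5′ to 3′.
mmu-miR-29a-3p: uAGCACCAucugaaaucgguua
mmu-miR-29b-3p: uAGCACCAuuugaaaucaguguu
mmu-miR-29c-3p: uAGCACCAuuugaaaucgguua

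The seed's complement TGGTGCT was searched on the sense strand of each annotated 3′ untranslated region (GENCODE M21, GRCm38). It occurred in 16.8% of 9670 genes tested. Among the AP-1 genes it occurred in Fos, with a region of 815 bases, and in Fosl1, with a region of 638 bases. It was not in the 2302 bases of Fosb, 4653 of Fosl2, 1233 of Jun, 485 of Junb or 533 of Jund. The site of Fos lies at chr12:85476833-85476862 and that of Fosl1 at chr19:5455320-5455349, both on the plus strand, with the match in capitals. The Fosl1 match is followed by an A, which many favoured miRNA sites have.
Fos: tggaattaaccTGGTGCTggattgtatcta
Fosl1: acatcccttgcTGGTGCTactccaagccat

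Upstream sequences are shown for Fos and Junb, which after OGD lay higher under the miR-29 virus, and for Fosl2, which lay lower. Each run is the 250 bases before the RefSeq start (GRCm38.p6), at chr12:85473640-85473889 for Fos, chr8:84978749-84978998 on the minus strand for Junb and chr5:32136222-32136471 for Fosl2. Capitals mark TGACG, the core of the cAMP response element bound by CREB, and TATAAA, the TATA box.
Fos: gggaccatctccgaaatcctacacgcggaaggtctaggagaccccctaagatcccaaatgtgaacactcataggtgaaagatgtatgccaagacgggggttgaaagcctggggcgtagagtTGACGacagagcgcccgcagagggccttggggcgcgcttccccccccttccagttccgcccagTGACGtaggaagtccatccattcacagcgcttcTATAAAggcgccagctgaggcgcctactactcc
Junb: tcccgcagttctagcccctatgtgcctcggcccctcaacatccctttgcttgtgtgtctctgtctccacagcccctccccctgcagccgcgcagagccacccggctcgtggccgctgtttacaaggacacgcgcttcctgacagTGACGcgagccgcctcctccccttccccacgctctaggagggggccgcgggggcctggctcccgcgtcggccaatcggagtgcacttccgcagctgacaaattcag
Fosl2: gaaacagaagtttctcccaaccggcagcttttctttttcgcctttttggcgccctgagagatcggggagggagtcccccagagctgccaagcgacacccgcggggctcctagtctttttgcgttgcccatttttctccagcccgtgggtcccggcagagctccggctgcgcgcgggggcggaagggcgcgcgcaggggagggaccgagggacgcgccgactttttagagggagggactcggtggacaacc

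The Fos run held TGACG at -129 to -125 and again at -66 to -62, and TATAAA at -33 to -28, counted from the start. The Junb run held TGACG at -106 to -102, and the Fosb promoter held it at -60 to -56. The Junb promoter also held TATAAA at 0 to 5, just past the printed run. The RefSeq start used for Junb lies 30 bases upstream of its GENCODE start. None of these letters occurred in the 250 bases of Fosl2, Jun or Jund, and Fosl1 was not matched. The RefSeq start used for Jund lies 1210 bases upstream of the gene start in GENCODE M21, so its run does not adjoin that start, and the start used for Fosl2 lies 671 bases downstream of the GENCODE start. On either strand of the 32851 promoters of 300 bases, 20.8% held TGACG or CGTCA and 13.6% held TATAAA or TTTATA. Of the 7912 genes tested here that had a promoter sequence, 2893 held TGACG or CGTCA, a larger share. The AP-1 site itself (TGACTCA or TGAGTCA, in 5.20% of promoters) and the CArG box of SRF (in 1.63%) were in none of the 6 promoters of members. Only these exact letters of the AP-1 site were searched, and variants of it were not. These promoters begin 250 bases before the start, so sites farther upstream were not searched. For Jund the bases next to the GENCODE start were not searched either. A match is a string of letters and not a site shown to be bound.

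Fos, the founding immediate early gene, stood lowest in OGD-empty cultures and highest in sham-miR-29 cultures. Its level was 21.9 and 34.7 CPM in sham-empty, 43.6, 31.9 and 50.9 CPM in sham-miR-29, 15.1, 10.4 and 13.9 CPM in OGD-empty, and 22.0, 31.1 and 18.3 CPM in OGD-miR-29 (replicates 1 to 3). Every OGD-empty library lay below every library of the other groups, while sham-empty overlapped both sham-miR-29 and OGD-miR-29. These levels rest on 22 to 198 reads per library.

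Under the empty virus OGD was accompanied by a 0.463-fold level of Fos, a log2 fold change of -1.11 ± 0.30 (SE; edgeR quasi-likelihood, adjusted p = 0.0379). Fos fell on 2 of 2 shared dissection days, by 0.52 and 1.71 on the log2 scale. It was the 1 member of 7 called in this comparison, which called 5.09% of all genes (1.48% up and 3.61% down), or 617, against 1369 with the dissection day as a block. The call was lost without sham-empty replicate 1 (-1.37, adjusted p = 0.104) or 2 (-0.69, 0.525), sham-miR-29 replicate 1 (-1.10, 0.0619), OGD-empty replicate 2 (-0.94, 0.0649) or 3 (-1.13, 0.0604) or OGD-miR-29 replicate 1 (-1.10, 0.0516). Over 20 alternatives the change stayed negative and the adjusted p ranged from 0.0307 to 0.525.

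Under the miR-29 virus the change of Fos with OGD was -0.83 ± 0.24 (adjusted p = 0.427), lower on 3 of 3 days and without overlap between the groups, but not called. In that comparison 0.0165% of genes were called. After OGD, Fos was 1.78-fold higher under the miR-29 virus than under the empty virus (0.83 ± 0.26, adjusted p = 0.0170), and higher on 3 of 3 days. Without OGD-miR-29 replicate 2 it was 0.61 (adjusted p = 0.101). The difference between the OGD responses under the 2 viruses was 0.28 ± 0.38 (adjusted p = 0.666). Between the viruses in sham cultures Fos differed by 0.55 ± 0.29 (adjusted p = 0.9995, not called). The transcript of Fos holds a seed match, and the part of that match in its level was not tested.

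**Figure D1:**
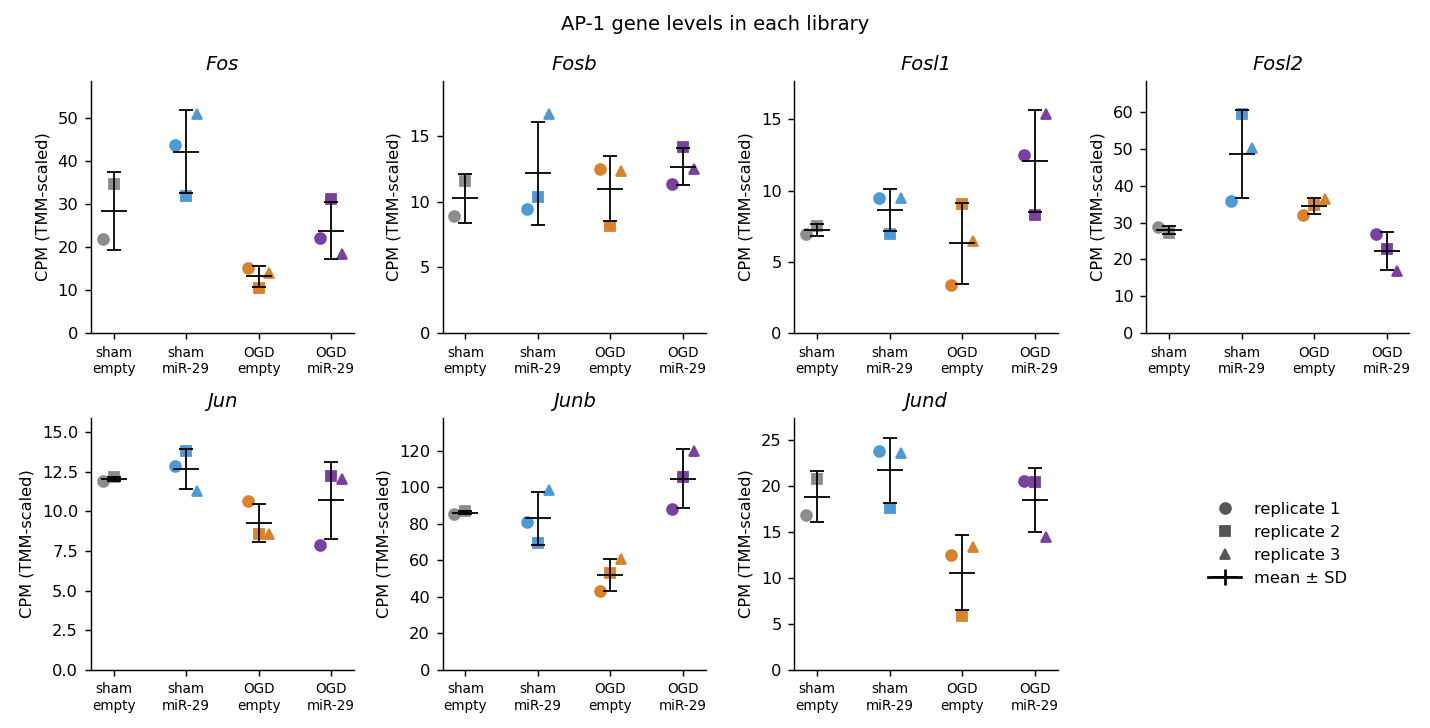
Level of each AP-1 gene in CPM (vertical axes, from 0) in the 11 libraries of 4 groups. Points are libraries, with shape giving the replicate number, and bars are mean ± SD. The OGD-empty points of Fos, Junb and Jund lie below all others, and the OGD-miR-29 points of Fosl2 lie below all others.

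Fosl2, which encodes the Fos family protein Fra-2, had another pattern. It measured 28.8 and 27.2 CPM in sham-empty, 36.0, 59.6 and 50.4 CPM in sham-miR-29, 32.1, 34.8 and 36.5 CPM in OGD-empty, and 27.0, 22.8 and 16.8 CPM in OGD-miR-29. OGD-miR-29 was the lowest group, with no overlap with any other. OGD-empty and sham-miR-29 overlapped narrowly.

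After OGD, Fosl2 under the miR-29 virus was at 0.659-fold of its level under the empty virus (-0.60 ± 0.22, adjusted p = 0.0383), lower on 3 of 3 days by 0.25 to 1.10 on the log2 scale. This call ended without sham-empty replicate 1 (-0.58, adjusted p = 0.0567) or 2 (-0.58, 0.0572), OGD-empty replicate 1 (-0.65, 0.0572) or 3 (-0.56, 0.0913), or OGD-miR-29 replicate 2 (-0.61, 0.0795) or 3 (-0.45, 0.147), and it ranged from 0.0105 to 0.147 over 20 alternatives. With OGD, Fosl2 went from 48.7 ± 11.9 to 22.2 ± 5.12 CPM (SD, n = 3 and 3) under the miR-29 virus, a change of -1.11 ± 0.22 on 3 of 3 days (adjusted p = 0.142, not called). Under the empty virus the change was 0.30 ± 0.27 (adjusted p = 0.522).

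The responses of Fosl2 to OGD differed between the viruses by -1.40 ± 0.34 (adjusted p = 0.0198). This test of the interaction called 8.38% of all genes (4.72% with a positive and 3.66% with a negative difference), or 1015, against 1861 with the dissection day as a block. Fosl2 and Junb were the 2 members among them. For Fosl2 the call ended without replicate 1 (-1.44, adjusted p = 0.0679) or 2 (-1.36, 0.129) of sham-empty or replicate 2 of sham-miR-29 (-1.23, 0.0579), and the adjusted p was 0.00329 to 0.129 over 19 alternatives. In sham cultures Fosl2 was 0.80 ± 0.26 higher under the miR-29 virus, without overlap, but its adjusted p was 0.9995.

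Fosl1, which encodes Fra-1, was counted in few reads, from 7 (exact 95% Poisson interval 2.81 to 14.4) to 68 (52.8 to 86.2) per library. Intervals of this kind cover counting error only. It measured 6.96 and 7.52 CPM in sham-empty, 9.48, 6.92 and 9.51 CPM in sham-miR-29, 3.40, 9.03 and 6.43 CPM in OGD-empty, and 12.5, 8.27 and 15.4 CPM in OGD-miR-29. The last group was highest on average, and OGD-empty replicate 2 overlapped it.

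After OGD, Fosl1 was 2.13-fold higher under the miR-29 virus (1.09 ± 0.33, adjusted p = 0.0140), and higher on 2 of 3 days. Without OGD-empty replicate 1 the difference was 0.62 (adjusted p = 0.163), and without OGD-miR-29 replicate 3 it was 0.93 (0.0548). With OGD, Fosl1 changed by -0.37 ± 0.46 under the empty virus and by 0.46 ± 0.30 under the miR-29 virus, and neither was called. The tail-to-tail neighbour Ccdc85b overlaps Fosl1 by 2767 bases and held 0.622 reads for each read of Fosl1, and Ctsw, 9097 bases away, held 0.945. After OGD both were also higher under the miR-29 virus, Ccdc85b by 1.04 ± 0.31 (adjusted p = 0.0133) and Ctsw by 0.78 ± 0.26 (adjusted p = 0.0222), and how far reads were shared was not tested.

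Fosb, whose truncated product ΔFosB accumulates in chronically stimulated neurons, was not called in any comparison. Its level was 8.95 and 11.6 CPM in sham-empty, 9.48, 10.4 and 16.7 CPM in sham-miR-29, 12.5, 8.13 and 12.3 CPM in OGD-empty, and 11.4, 14.2 and 12.5 CPM in OGD-miR-29. All groups overlapped. The log2 changes ran from -0.08 ± 0.44 for the interaction to 0.24 ± 0.35 for the virus in sham cultures, with a 95% interval of -0.59 to 0.78 for OGD under the empty virus. Rtn2 and Gm26802 lie within 10 kb of Fosb and held 0.969 and 0.477 reads for each read of Fosb.

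Junb, an immediate early member that often restrains Jun, was the member with the most reads, 86 to 480 per library. It measured 85.5 and 86.8 CPM in sham-empty, 81.1, 69.6 and 98.5 CPM in sham-miR-29, 42.9, 52.8 and 60.6 CPM in OGD-empty, and 88.2, 106 and 120 CPM in OGD-miR-29. The OGD-empty libraries lay below all others. The sham groups overlapped each other, and OGD-miR-29 was highest on average.

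After OGD, Junb was 2.02-fold higher under the miR-29 virus (1.01 ± 0.20, adjusted p = 0.00118). The difference was 0.98 to 1.03 on each of 3 days, the narrowest range of any member in this comparison. The call was kept in 20 of 20 alternatives, with adjusted p of 0.000384 to 0.0396. Under the empty virus Junb was lower with OGD on 2 of 2 days (-0.74 ± 0.23, adjusted p = 0.0616), which was not called. With the replicate number, that is the dissection day, as a block it was called (-0.86, adjusted p = 0.0212), the 1 alternative of 20 that did so (adjusted p up to 0.377). Under the miR-29 virus Junb was higher with OGD on 3 of 3 days (0.33 ± 0.20, adjusted p = 0.610), again not called.

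The OGD responses of Junb differed between the viruses by 1.06 ± 0.30 (adjusted p = 0.0347; 0.0130 to 0.232 over 19 alternatives). This call ended without sham-empty replicate 1 (1.08, adjusted p = 0.0932) or 2 (1.04, 0.162), sham-miR-29 replicate 1 (1.04, 0.0742) or 2 (0.95, 0.0927), OGD-empty replicate 1 (0.93, 0.0673), or OGD-miR-29 replicate 2 (1.06, 0.0597) or 3 (0.96, 0.0782).

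The counts of Junb cannot be separated from those of Prdx2, a peroxiredoxin gene that converges on it and overlaps its end by 351 bases on chromosome 8. Prdx2 held 86, 164, 200, 161, 411, 286, 113, 88, 449, 267 and 260 reads in the 11 libraries, where Junb held 86, 150, 214, 181, 383, 278, 117, 113, 480, 269 and 250 (sham-empty, sham-miR-29, OGD-empty, then OGD-miR-29). The ratio was 0.779 to 1.09 in single libraries and 0.986 over all. Prdx2 was called in the same direction after OGD (1.13 ± 0.22, adjusted p = 0.000939), in the interaction (1.28 ± 0.32, adjusted p = 0.0210) and, lower, with OGD under the empty virus (-0.93 ± 0.24, adjusted p = 0.0330). Which of the 2 genes the reads came from was not tested.

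**Figure D2:**
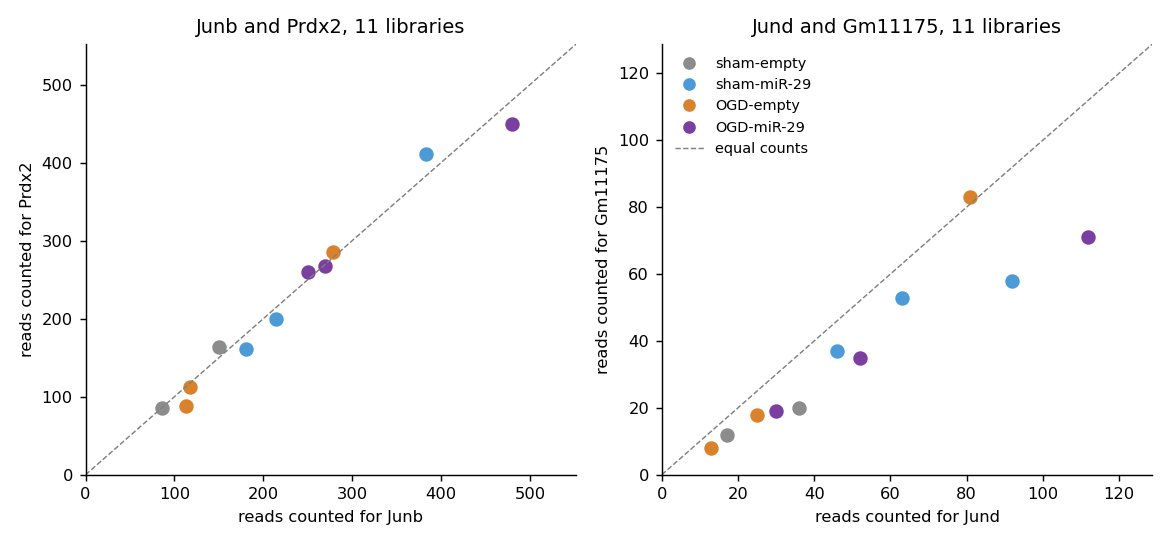
Reads counted for Junb (left, horizontal axis) and Jund (right, horizontal axis) against those counted for the overlapping genes Prdx2 and Gm11175 (vertical axes) in 11 libraries, coloured by group. The dashed line marks equal counts. Junb and Prdx2 lie along it, with Prdx2 at 0.779 to 1.09 of Junb, and Gm11175 lies at 0.556 to 1.02 of Jund.

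Jund, the member best known in resting cells, measured 16.9 and 20.8 CPM in sham-empty, 23.9, 17.7 and 23.7 CPM in sham-miR-29, 12.5, 5.87 and 13.4 CPM in OGD-empty, and 20.6, 20.5 and 14.4 CPM in OGD-miR-29. OGD-empty lay below the other groups without overlap. The lowest library, OGD-empty replicate 2, rests on 13 reads (exact 95% Poisson interval 6.92 to 22.2).

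After OGD, Jund was 1.73-fold higher under the miR-29 virus (0.79 ± 0.27, adjusted p = 0.0257), on 3 of 3 days by 0.10 to 1.75. The call ended without OGD-empty replicate 2 (0.52, adjusted p = 0.1003) or OGD-miR-29 replicate 1 (0.73, 0.0806) or 2 (0.73, 0.0763). Jund had, with OGD under the empty virus, a log2 change of -0.82 ± 0.33 (adjusted p = 0.136, not called), and under the miR-29 virus of -0.22 ± 0.25. Leaving out 1 library at a time these ran from -1.02 to -0.53 and from -0.33 to -0.086, with no call. The antisense gene Gm11175 lies within Jund and held 0.730 reads for each read of Jund. Its own change after OGD was 0.38 ± 0.31 (adjusted p = 0.353).

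Jun, the substrate of the JNK kinases, stayed within a narrow range. It measured 11.9 and 12.2 CPM in sham-empty, 12.9, 13.8 and 11.3 CPM in sham-miR-29, 10.7, 8.58 and 8.58 CPM in OGD-empty, and 7.90, 12.2 and 12.02 CPM in OGD-miR-29. OGD-empty lay below both sham groups, and OGD-miR-29 overlapped 3 of 3 other groups. No comparison was called, the largest change being -0.34 ± 0.32 with OGD under the empty virus (95% interval -0.96 to 0.29). The antisense gene Junos overlaps Jun by 689 bases and was not a row of the table.

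Across the 7 members the comparisons differed in how many were called. With OGD under the miR-29 virus 0 of 7 were called by edgeR, DESeq2 and limma-voom, where edgeR called 2 genes in all and 1111 had an unadjusted p under 0.05. Between the viruses in sham cultures 0 of 7 members and 0% of all genes were called by the same 3 tools, and the unadjusted p of 405 genes was under 0.05. The members' changes there were -0.05 to 0.80, with an adjusted p of 0.9995 for each.

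Between the viruses after OGD 5 of 7 members were called, Fos, Fosl1, Junb and Jund higher and Fosl2 lower. The same test called 37.1% of all genes, with 17.2% up and 19.9% down. The groups did not overlap for 4 of 7 members, against 50.1% of all genes. The median log2 change of the members was 0.79, against 0.02 over all genes. OGD-empty libraries enter this comparison, the interaction and the comparison with sham-empty, so opposite signs in these are not separate observations.

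**Figure D3:**
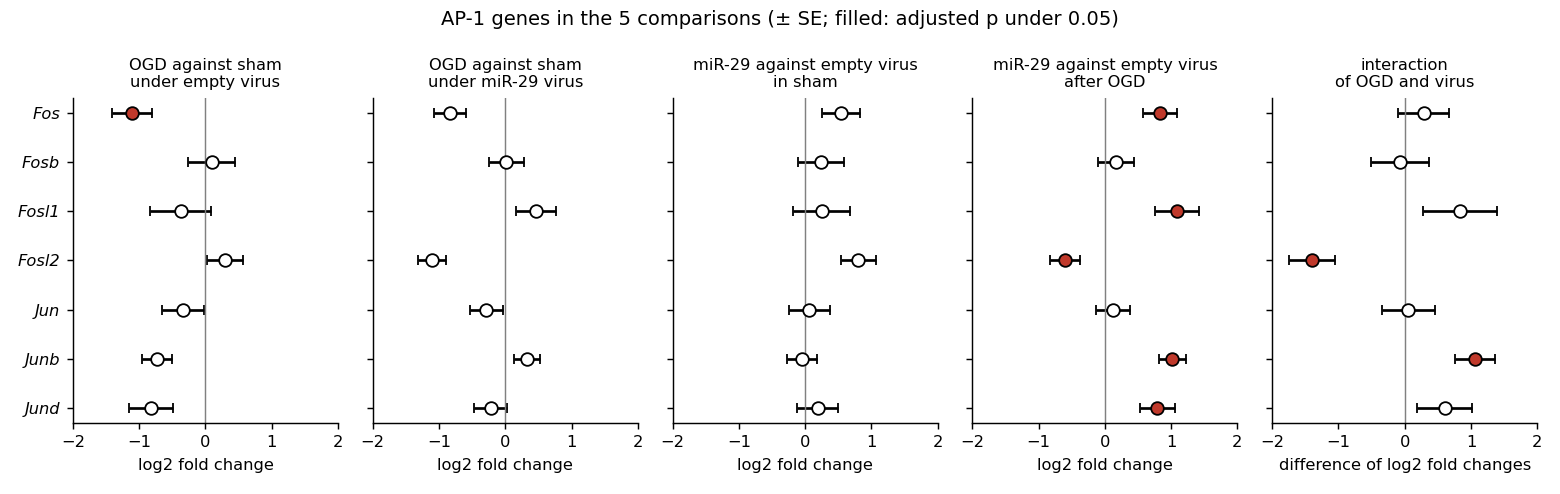
Log2 fold change ± SE (horizontal axes) of the 7 AP-1 genes in the 5 comparisons, with filled points where the adjusted p was under 0.05. After OGD between the viruses 4 filled points lie to the right and that of Fosl2 to the left, and the open points of Fosb and Jun also lie to the right. With OGD under the miR-29 virus and between the viruses in sham cultures no point is filled.

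Gene length moved with these results. The 5 members of 1.67 to 7.36 kb and Fosl1 of 8.40 kb are short, while Fosl2 spans 22.0 kb. Among genes under 2 kb, 2 to 5 kb and 5 to 10 kb, the median log2 change between the viruses after OGD was 0.51, 0.59 and 0.48, with 34.8%, 39.0% and 31.2% of them called higher. Among genes of 20 to 25 kb the median was 0.16 and 8.87% were called lower, and from 50 kb upward the median was -0.74 and 48.9% were called lower. The higher members fall in the classes under 10 kb, and Fosl2 falls in that of 20 to 25 kb.

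A further fit took each library's trend on gene length out of the counts and used the dissection day as a block, over the 11305 genes with a span. Of these it called 2724 between the viruses after OGD and 911 for the interaction. With OGD it called 494 under the empty virus and 27 under the miR-29 virus. In this length-corrected fit Junb (0.51 ± 0.18, adjusted p = 0.0316) and Fosl2 (-0.71 ± 0.20, adjusted p = 0.0105) stayed called between the viruses after OGD. Fos (0.31 ± 0.23, adjusted p = 0.348), Jund (0.30 ± 0.24, 0.385) and Fosl1 (0.73 ± 0.31, 0.0789) did not, their adjusted p over 20 alternatives reaching from 0.0126, 0.0210 and 0.000786 up to 0.348, 0.421 and 0.163. In the same fit the change of Fos with OGD under the empty virus was -0.70 (adjusted p = 0.151) and that of Jund -0.43 (0.491), neither called. Under the miR-29 virus both Fos (-0.95, adjusted p = 0.0287) and Fosl2 (-1.11, adjusted p = 0.00419) were then called lower with OGD, with 0.0287 to 0.890 and 0.00419 to 0.840 over 20 alternatives. The interaction stayed called for Fosl2 (-1.56, adjusted p = 0.00329) and not for Junb (0.66, 0.131). The part of the length trend in these changes was not tested beyond this fit.

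**Figure D4:**
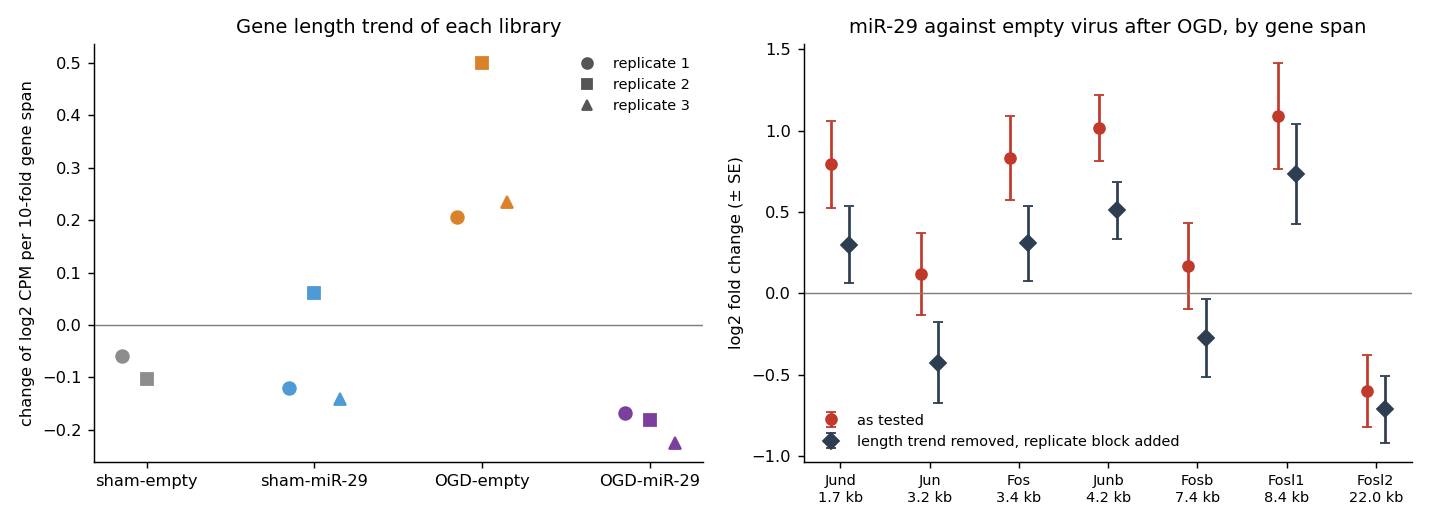
Left, slope of log2 CPM per 10-fold gene span in each library by group, with OGD-empty between 0.206 and 0.5002. Right, log2 fold change ± SE between the viruses after OGD for the AP-1 genes ordered by gene span, as tested (circles) and in the length-corrected fit with dissection day as a block (diamonds), where Junb and Fosl2 keep a called change.

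Cell type markers also moved. The summed level of the neuronal markers was 1074 to 1326 CPM in OGD-empty, 755 to 1013 CPM in the sham groups and 628 to 812 CPM in OGD-miR-29. After OGD, 1 of these 10 markers was called higher and 5 lower under the miR-29 virus, with a median of -0.54. Of all genes 37.1% were called in that comparison, 17.2% higher and 19.9% lower. Astrocyte markers summed to 93.9 to 106 CPM in OGD-empty and 57.7 to 72.4 CPM in OGD-miR-29, with 1 of 5 called lower. Microglial markers went the other way, at 18.8 to 28.0 CPM in OGD-empty and 32.1 to 36.1 CPM in OGD-miR-29, with 1 of 3 called higher. Oligodendrocyte lineage markers summed to 14.1 to 16.1 CPM in OGD-empty and 16.3 to 20.9 CPM in OGD-miR-29, with 1 of 4 called higher. Fibroblast and vessel markers were at 17.3 to 19.8 and 18.9 to 26.8 CPM, with 0 of 3 called. The part of these differences in the AP-1 results was not tested.

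Other bZIP proteins that pair with Fos or Jun were measured for 9 of 14 genes listed. After OGD 2 were higher and 2 lower under the miR-29 virus (median -0.33), where 37.1% of all genes were called. The stress-induced Atf3 had means of 17.6 ± 1.90 CPM in sham-empty, 19.0 ± 5.34 in sham-miR-29, 6.64 ± 0.41 in OGD-empty and 13.9 ± 0.67 in OGD-miR-29 (SD). It fell with OGD under the empty virus (-1.40 ± 0.31, adjusted p = 0.0164; -1.30, 0.125 and -1.51, 0.140 without sham-empty replicates 1 and 2) and was higher under the miR-29 virus after OGD (1.08 ± 0.26, adjusted p = 0.00410). Atf4, the effector of the integrated stress response, went the same way (-0.76 ± 0.22, adjusted p = 0.0491, and 0.97 ± 0.19, adjusted p = 0.00122), with counts like those of its neighbours Mief1 and Rps19bp1. Its fall stayed called without replicate 2 of sham-miR-29 or replicate 3 of OGD-miR-29 and in none of the other 9 omissions of 1 library (0.0526 to 0.369). Atf2, a partner of Jun, was lower after OGD under the miR-29 virus (-0.87 ± 0.23, adjusted p = 0.00742; neighbour Gm10822), as was Nfe2l2, the antioxidant regulator (-1.34 ± 0.38, adjusted p = 0.0105; -1.07, 0.0810 without OGD-empty replicate 1; neighbour Hnrnpa3). Nfe2l2 was also called higher with OGD under the empty virus, but it had 3 reads over the sham-empty libraries and no fold is given. Jdp2, a repressor that pairs with Jun, was not called after OGD (-0.33 ± 0.32). In the length-corrected fit Atf3 (1.28, adjusted p = 0.000407) and Nfe2l2 (-1.36, 0.00503) stayed called after OGD, and Atf4 (0.45, 0.0582) and Atf2 (-0.43, 0.115) did not. With OGD under the empty virus Atf3 stayed called there (-1.66, adjusted p = 0.00196) and Atf4 did not (-0.35, 0.386).

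Among kinases and phosphatases upstream of AP-1, 21 of 25 were measured. After OGD 1 was higher and 5 lower under the miR-29 virus (median -0.03), where 37.1% of all genes were called. Mapk10, the JNK isoform of neurons, was lower (-1.80 ± 0.36, adjusted p = 0.00311), and its level in OGD-empty spread widely, at 103 ± 65.8 CPM against 29.1 ± 3.37 in OGD-miR-29. The JNK activators Map2k4 (-0.71 ± 0.20, adjusted p = 0.0108) and Map3k5 (-1.03 ± 0.33, adjusted p = 0.0195; neighbour Map7) and the p38 activator Map2k6 (-1.08 ± 0.34, adjusted p = 0.0170) were lower as well. Mapk8 (-0.45 ± 0.20, adjusted p = 0.0780) and the phosphatase gene Dusp1 (0.48 ± 0.35, adjusted p = 0.285; neighbour Ergic1) were not called. In the comparison of OGD with sham under the empty virus 0 of 21 were called by edgeR and limma-voom and 1 by DESeq2. Of all genes edgeR called 5.09% there. In the length-corrected fit, which called 2724 of 11305 genes after OGD, 2 were called in place of 6, Map2k1 higher and Dusp4 lower. None of the 4 lower genes given here stayed called in it, with Mapk10 at -0.40 (adjusted p = 0.0938), Map2k4 at -0.12 (0.668), Map3k5 at -0.055 (0.964) and Map2k6 at -0.44 (0.373). Map2k6 was no longer called without OGD-empty replicate 1 (-0.94, adjusted p = 0.0879) or OGD-miR-29 replicate 2 (-1.02, 0.0531) or 3 (-0.94, 0.0595), nor Map3k5 without OGD-empty replicate 2 (-0.87, 0.0522) or 3 (-0.91, 0.0590) or OGD-miR-29 replicate 2 (-0.98, 0.0564), while Mapk8 was called without OGD-miR-29 replicate 1 (-0.62, 0.0443).

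Of the transcription factors that act on Fos and Jun promoters, 15 of 16 were measured. After OGD 0 were higher and 7 lower under the miR-29 virus, where 37.1% of all genes were called and 19.9% were lower. The median was -0.69, against 0.02 over all genes. Genes of 50 kb or more had a median of -0.74, with 48.9% called lower. The lower genes were Mef2a (-1.49 ± 0.23, adjusted p = 0.000542), Mef2c (-1.23 ± 0.22, 0.000749), Crebbp (-1.16 ± 0.28, 0.00368), Ep300 (-1.19 ± 0.29, 0.00385), Creb1 (-0.78 ± 0.28, 0.0313), Mkl1 (-0.92 ± 0.27, 0.0122) and Mkl2. Mef2a and Mef2c are activity-dependent factors of neurons, and Crebbp and Ep300 encode the acetyltransferases that CREB recruits. Mef2a means were 25.9 ± 1.39 CPM in sham-empty, 29.1 ± 7.28 in sham-miR-29, 49.8 ± 8.02 in OGD-empty and 17.1 ± 4.70 in OGD-miR-29. Srf was not called (0.51 ± 0.30, adjusted p = 0.195). These factors were lower where Fos and Junb were higher, and the part of gene length in this was not tested beyond the length-corrected fit. The length-corrected fit held 13 of the 15, without Mkl1 and Mkl2, which had no span. It called 3, Mef2a (-0.70, adjusted p = 0.00836) and Ep300 (-0.75, 0.0172) lower and Elk3 higher, where 2724 of 11305 genes were called. Mef2c (-0.39, 0.138), Crebbp (-0.41, 0.167) and Creb1 (-0.40, 0.244) were not called in it. Creb1 was no longer called without OGD-empty replicate 1 (-0.54, adjusted p = 0.205) or OGD-miR-29 replicate 1 (-0.88, 0.0520) or 2 (-0.60, 0.131). With OGD under the empty virus, where 5.09% of all genes were called, the 1 called gene was Mkl1 (1.28 ± 0.36, adjusted p = 0.0459). It stayed called on leaving out sham-miR-29 replicate 2 or OGD-empty replicate 1 and in none of the other 9 omissions of 1 library (0.0513 to 0.410). Neighbours with at least 0.5 of the gene's count were Lysmd4 for Mef2a, Trap1 for Crebbp, Mettl21a for Creb1, 1700113A16Rik for Mef2d and Cul9, Gm26904 and Ptk7 for Srf.

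Immediate early genes other than AP-1 were measured for 15 of 25. After OGD 4 were higher and 1 lower under the miR-29 virus, where 37.1% of all genes were called. The median was 0.48, against 0.02 over all genes. Ier3 was higher by 1.66 ± 0.27 (adjusted p = 0.000571; its neighbour Flot1 held 14.8 reads for each of its own), Btg2, an antiproliferative gene, by 1.23 ± 0.28 (0.00264), Ier5 by 1.20 ± 0.32 (0.00661) and Arc, a regulator of synaptic receptors, by 0.94 ± 0.27 (0.0121). Egr1, also an immediate early gene of synaptic activity, was lower (-0.87 ± 0.29, adjusted p = 0.0239), and had its highest mean in OGD-empty, 11.6 ± 2.28 CPM. The activity-dependent Npas4 (0.53 ± 0.25, adjusted p = 0.102) and Nr4a1 (0.54 ± 0.28, adjusted p = 0.129) were not called, though Nr4a1 was without OGD-miR-29 replicate 1 (0.82, 0.0409). Arc was not called without OGD-empty replicate 1 (0.84, adjusted p = 0.0595) or OGD-miR-29 replicate 2 (0.68, 0.0744), nor Egr1 without OGD-empty replicate 1 (-0.79, 0.0853) or 3 (-0.79, 0.0599) or OGD-miR-29 replicate 3 (-0.68, 0.0906). In the length-corrected fit Ier3 (1.14, adjusted p = 0.00187) and Egr1 (-1.33, 0.000750) stayed called after OGD, while Btg2 (0.75, 0.0556), Ier5 (0.70, 0.0880) and Arc (0.43, 0.214) did not, and Egr3 and Sik1 became called lower. For OGD under the empty virus Btg2 was the 1 called gene (-1.40 ± 0.35, adjusted p = 0.0287), and not without sham-empty replicate 1 (-1.39, 0.128) or 2 (-1.37, 0.249) or OGD-empty replicate 1 (-1.30, 0.0556) or 2 (-1.25, 0.0503), nor in the length-corrected fit (-0.99, 0.132), where Egr1 was called higher (1.60, adjusted p = 0.0220) and Dusp1 lower (-1.53, 0.0318).

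Reported AP-1 target genes were measured for 12 of 30. After OGD 3 were higher and 0 lower under the miR-29 virus (median 0.04), where 37.1% of all genes were called. The 3 were the heme oxygenase gene Hmox1 (0.73 ± 0.24, adjusted p = 0.0249) and the metallothionein genes Mt1 (0.77 ± 0.22, 0.0114) and Mt2 (0.62 ± 0.22, 0.0346), which neighbour each other. In the length-corrected fit 0 of the 12 were called after OGD, where 2724 of 11305 genes were called. Hmox1 was not called without OGD-empty replicate 1 (0.59, adjusted p = 0.113) or OGD-miR-29 replicate 2 (0.56, 0.118), nor Mt1 without the latter (0.62, 0.0612), nor Mt2 without OGD-empty replicate 2 (0.47, 0.0970) or 3 (0.60, 0.0825) or OGD-miR-29 replicate 1 (0.55, 0.0993) or 2 (0.48, 0.147). Mt1 (1.83 ± 0.23) and Mt2 (1.79 ± 0.23) were also the 2 genes called with OGD under the miR-29 virus (adjusted p = 0.000743 for each). Of 7912 genes with a promoter sequence, 328 held the AP-1 site, and after OGD 54 of these were higher and 73 lower under the miR-29 virus. That is 38.7% called, against 36.6% of all genes with a promoter. Genes with the miR-29 seed match in the 3′ untranslated region (1623 of 9670) had 151 higher and 471 lower in the same comparison, with a median of -0.26 against -0.01. Fos and Fosl1 were among those higher. Over all genes 17.2% were called higher and 19.9% lower there. Between the viruses in sham cultures 0 genes with the match were called, with a median of 0.030 against 0.006. With OGD under the empty virus 38 genes with the match were higher and 17 lower, with a median of 0.21 against 0.05. Of all genes 1.48% were called higher and 3.61% lower there. The part of gene length in these shifts was not tested.

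Genes whose pattern was most like that of each member were ranked by the root mean square difference of centred log2 CPM over the 11 libraries, as a description with no test. For Fos these were H1f0 (0.263), Hist1h4d, Hist1h2ad, Hist1h3d and Hist1h2bg, with Jund ranked 7 of all genes (0.327). For Jund they were Hist1h2bg (0.171), Rhob, Rgs4, Smim22 and Degs1. Histone genes of this kind are among the shortest in the genome. For Junb they were Tmx2 (0.0913), Nsg2, Ssr4, Pkm and Ptges3, with Prdx2 ranked 10. For Fosl2 they were Heca (0.254), 1190002N15Rik, Socs5, Sgk1 and Scn3b, and none of the other members was near. For Fosl1 the nearest was Zp1 (0.175), for Fosb Sun1 (0.116) and for Jun Csf1r (0.133).

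In the authors' deposited table of OGD-empty against sham-empty, the log2 fold change was -0.76 for Fos (false discovery rate 0.589), -0.84 for Jund (0.524), -0.18 for Junb and 0.58 for Fosl2, and 6 genes had a rate under 0.05. In the authors' deposited table of OGD-miR-29 against sham-empty it was 0.83 for Junb (0.970), 0.12 for Fos and 0.02 for Fosl2, with 2 genes under 0.05. No member passed in either of the authors' deposited tables. Whether the left-out column entered those tables is not given in the sources used here.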

How the data were processed

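RNA was measured in 12 samples of 4 groups by sequencing of ribosome-depleted total RNA. As deposited by the authors, the main table gives raw counts of reads for gene symbols. The submitters' processing notes name build mm10 and the tools edgeR, featureCounts 1.4.3-p1 and STAR 2.5.0a with no role, and the strand setting and counting region are not given in the sources used here. Per the file headers, the authors' 2 comparison tables hold log2 fold changes, a likelihood ratio score, p-values and an FDR for each gene. All columns were mapped to samples (0 unmapped). The sham-empty replicate 3 column was left out: its rank correlation with the other columns was 0.0438 to 0.0978, and 92.6% of its values for 11326 matched genes equalled the number of annotated same-strand genes in the gene and 10 kb downstream.

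Counts of 11 libraries were tested in 1 fit of 4 group means with edgeR 4.0.16 in R 4.3.3 (TMM scaling, filterByExpr, robust quasi-likelihood F test). P-values were adjusted by Benjamini-Hochberg over 12119 genes and called under 0.05. CPM uses TMM-scaled totals, which include mitochondrial rows (57.6% to 84.1% of summed counts). SE is the fold change over the square root of F, and 95% intervals use this SE. For genes below edgeR's Poisson bound, such as Jun, the p-value is raised and can exceed what F and SE give. Means are ± SD. DESeq2 1.42.0, limma-voom (limma 3.58.1) and other settings were alternatives, and the scripts were tested on simulated data. The design text gives replicate numbers as dissection days, so numbers pair libraries. Deviations from group means over 3000 genes correlated by -0.27 to 0.41 (median -0.01) in 15 same-number pairs, 7 of them over 0.1. In the 30 pairs of different number the correlation was -0.49 to 0.41, so same-number pairs did not stand out. Gene positions and spans come from GENCODE M21. P-values measure the spread between cultures of separate days.

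The members and gene lists were chosen with earlier results of these data known. Named genes were all members, 11 genes named in every case (Atf3, Jdp2, Egr1, Arc, Npas4, Nr4a1, Mapk8, Mapk10, Srf, Creb1 and Dusp1), up to 4 called genes per list and comparison by smallest adjusted p, and the 5 nearest genes to each member. Mkl2, the less significant Mkl1 result and Map2k1, Dusp4, Elk3, Egr3 and Sik1 were named after their values were seen.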

Additional observations from a re-analysis of the deposited data

Results flagged for a closer look

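The response to OGD under the miR-29 virus differed from that under the empty virus for 10 of the named genes, by the edgeR interaction test with an adjusted p under 0.05. Those outside the AP-1 genes were named because a comparison, this one included, had called them, so the count rests on that choice. Of all genes 8.38% were called by this test. One of the 10, Nfe2l2 (adjusted p = 0.0241), had 3 reads over the sham-empty libraries, and no difference is given for it. Among AP-1 genes these were Fosl2 (-1.40 ± 0.34, adjusted p = 0.0198) and Junb (1.06 ± 0.30, adjusted p = 0.0347, with counts nearly equal to those of Prdx2). More positive under the miR-29 virus were also the stress factor gene Atf4 (1.07, adjusted p = 0.0295) and the immediate early genes Btg2 (1.39, adjusted p = 0.0461) and Ier3 (1.42, adjusted p = 0.0496, with Flot1 next to it). More negative were the transcription factor genes Mef2a (-1.66, adjusted p = 0.0121), Mef2c (-1.28, adjusted p = 0.0273) and Mef2d (-1.51, adjusted p = 0.0444, with 1700113A16Rik at 0.638 of its count) and the acetyltransferase gene Ep300 (-1.65, adjusted p = 0.0399). The calls of the other 9 genes each ended without sham-empty replicate 1 and without sham-empty replicate 2. Over the 11 omissions of 1 library the call was kept in 9 for Mef2a (adjusted p up to 0.103), 8 for Fosl2 (0.129), 6 for Atf4 (0.168) and Mef2c (0.111), 5 for Ep300 (0.181), 4 for Junb (0.162), 3 for Mef2d (0.287), and 1 for Btg2 (0.200) and Ier3 (0.540). The difference of Ier3 was 0.77 without sham-empty replicate 2. The slope on gene length was highest in OGD-empty libraries, which enter each of these differences. With the length trend removed and the dissection day as a block, Fosl2 (-1.56, adjusted p = 0.00329) and Mef2d (-1.66, 0.0137) stayed called. The calls of Junb (0.66, 0.131), Atf4 (0.55, 0.233), Btg2 (0.89, 0.237), Ier3 (0.77, 0.298), Mef2a (-0.90, 0.0774), Mef2c (-0.40, 0.449) and Ep300 (-1.29, 0.0537) ended. The neuronal marker sum was also highest in OGD-empty, and its part was not tested.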

How the results depend on the processing

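DESeq2 size factors, omission of mitochondrial rows and no filter on low counts left every AP-1 call and direction as it was. By the DESeq2 Wald test, between the viruses after OGD, Fosl2 (-0.61) and Jund (0.79) were not called, leaving 3 members. By limma-voom Fos was not called with OGD under the empty virus (-1.10, 0 members). With only the groups compared Fos (-1.19, 0 members) and, after OGD, Fosl2 (-0.57) were not called, and Fosb under the miR-29 virus was -0.0089. The replicate block called Junb with OGD under the empty virus (-0.86, 2 members) and turned the interaction of Fosb to 0.057, and it changed no other call of a member. With the block its counts of all genes called were 1369 (617 without) with OGD under the empty virus, 5 (2) under the miR-29 virus and 1861 (1015) for the interaction.

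Removal of the length trend, alone (an alternative chosen after seeing the data) or together with the replicate block, moved the most values, given in that order. With OGD under the empty virus Fos was -0.73 and -0.70 (0 members called in both) and Jun turned to 0.054 and 0.14. Under the miR-29 virus Fos (-0.94 and -0.95) and Fosl2 (-1.13 and -1.11) became called (2 members in both), and Fosb turned to -0.10 and -0.054. After OGD 2 members were called in both, with Fos at 0.32 and 0.31, Fosl1 at 0.72 and 0.73 and Jund at 0.28 and 0.30 not called, and Fosb (-0.26 and -0.27) and Jun (-0.41 and -0.43) turned. In the interaction 1 member was called in both, with Junb at 0.57 and 0.66, and Fos (-0.21 and -0.24) and Jun (-0.47 and -0.57) turned. Genes called after OGD fell from 4501 to 2548 and 2724, and in the OGD comparison under the empty virus to 285 and 494, over 11305 genes tested in place of 12119. In the OGD comparison under the miR-29 virus the genes called rose from 2 to 18 and 27. For the interaction they fell from 1015 to 545 and 911. The cause was not tested further.

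Leaving out 1 library at a time gave, with OGD under the empty virus, 0 to 1 members called, Fos at -1.37 to -0.69, Fosb at -0.054 to 0.34 and Fosl1 at -0.73 to 0.10. Under the miR-29 virus it gave 0 to 1 members, Fosb at -0.12 to 0.34 and Fosl2 at -1.27 to -0.93, called without OGD-empty replicate 2 (-1.10, adjusted p = 0.00984). In sham cultures Fosb was -0.079 to 0.50 and Junb -0.19 to 0.082. After OGD it gave 2 to 5 members, Fos at 0.61 to 0.98, Fosb at -0.024 to 0.31, Fosl1 at 0.62 to 1.46, Fosl2 at -0.76 to -0.45, Jun at -0.00036 to 0.37 and Jund at 0.52 to 0.99. In the interaction it gave 0 to 2 members, Fos at -0.12 to 0.56, Fosb at -0.31 to 0.25, Fosl2 at -1.58 to -1.23, Jun at -0.086 to 0.29 and Junb at 0.93 to 1.21. With 7 to 480 reads per member and library, depth limits the members with few reads, such as Fosl1, Fosb and Jun.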
